A study of Mus musculus with 4 samples.

Results

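The 35 genes described here are genes of T, NK and B lymphocytes, chosen by symbol, and all 35 were among the 24421 genes of the deposited matrices. They comprised 20 T cell genes (4 chains of the T cell receptor complex, 6 surface molecules and coreceptors, 4 signalling proteins and 6 genes of subsets and costimulation), 7 genes of NK and cytotoxic cells and 8 genes of B and plasma cells. RNA-seq had been performed on poly(A) RNA of epididymal adipose tissue, the abdominal fat pad attached to the epididymis, from WT male C57BL/6J mice. Control mice (Ctrl) began a high-fat diet (HFD) at 10 weeks of age and ate it without a break for 14 weeks. Weight-cycled mice (WC1) began HFD at 8 weeks of age, ate it for 8 weeks, lost weight on standard diet (SD) for 2 weeks, and returned to HFD for 6 weeks. The total time on HFD was thus 14 weeks and the final age 24 weeks in both groups, and no group fed SD throughout was among the 4 libraries. Each group had 2 libraries, and the labels do not say whether these came from separate animals, so p-values measure only the spread between the libraries, which may be partly technical.

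A T cell recognises antigen through its receptor, whose variable chains carry no signal by themselves. The CD3 chains and the zeta chain (Cd247) pass the signal to the kinases Lck and Zap70 and the adaptor Lat. B cells use a membrane antibody in the same way, with the paired chains Cd79a and Cd79b as its signalling part, and after activation some become plasma cells that secrete antibody. NK cells and cytotoxic T cells kill targets by releasing granules of perforin (Prf1) and granzymes. In the epididymal fat of obese mice, lymphocytes are known to lie among the adipocytes, around dying adipocytes, and in small lymphoid clusters that draw in B cells through the chemokine Cxcl13.

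Read totals were 71658062 for Ctrl 1, 90965297 for Ctrl 2, 61655738 for WC1 1 and 61465029 for WC1 2. Levels are given as CPM, reads of a gene scaled to the size of its library, and, where genes are compared with each other, as TPM, which also corrects for transcript length. The genes that reached 0.5 CPM in 2 or more libraries were tested by limma on log2(CPM + 1), and a gene is said to be called where its p, adjusted by Benjamini-Hochberg over all 14106 genes tested, was under 0.05. In WC1 compared to Ctrl, 10.2% of the genes tested were called higher and 7.71% were called lower. Higher genes made up 57.0% of the called genes in CPM and 77.9% in TPM, where the median log2 fold change over every gene tested was 0.10 in place of -0.02, and TPM fold changes below are to be read against that shift. The pan-leukocyte gene Ptprc (CD45) was detected in all 4 libraries, at 343 and 314 CPM in Ctrl and 280 and 122 CPM in WC1. Of the constant chains looked up by symbol, 0 of 6 of the T cell receptor and 0 of 11 of the immunoglobulins were in the matrices.

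Lymphocyte genes were scarce in this tissue. Together the 35 genes took 0.00643% and 0.00580% of the reads in Ctrl 1 and Ctrl 2, 0.00665% in WC1 1 and 0.0133% in WC1 2. In TPM, 14 and 18 of them lay under 1 TPM in Ctrl 1 and Ctrl 2, 17 in WC1 1 and 9 in WC1 2. The most abundant was the T cell adaptor Lat in Ctrl 1, Ctrl 2 and WC1 1, at 13.8, 12.0 and 9.50 TPM, but the antibody joining chain Jchain in WC1 2, at 40.9 TPM. Thus 1 weight-cycled library differed from the other 3 in both the summed amount and the leading gene of the 35 genes. The excess lay mostly in the B and plasma genes, at 78.3 CPM in WC1 2 and 28.9 CPM in WC1 1. The T cell genes summed to 35.6 and 28.7 CPM in Ctrl and 30.5 and 41.7 CPM in WC1. The NK and cytotoxic genes summed to 10.1 and 11.1 CPM in Ctrl and 7.74 and 9.98 CPM in WC1. The plot of all members by library shows the levels gene by gene.

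**Figure D1:**
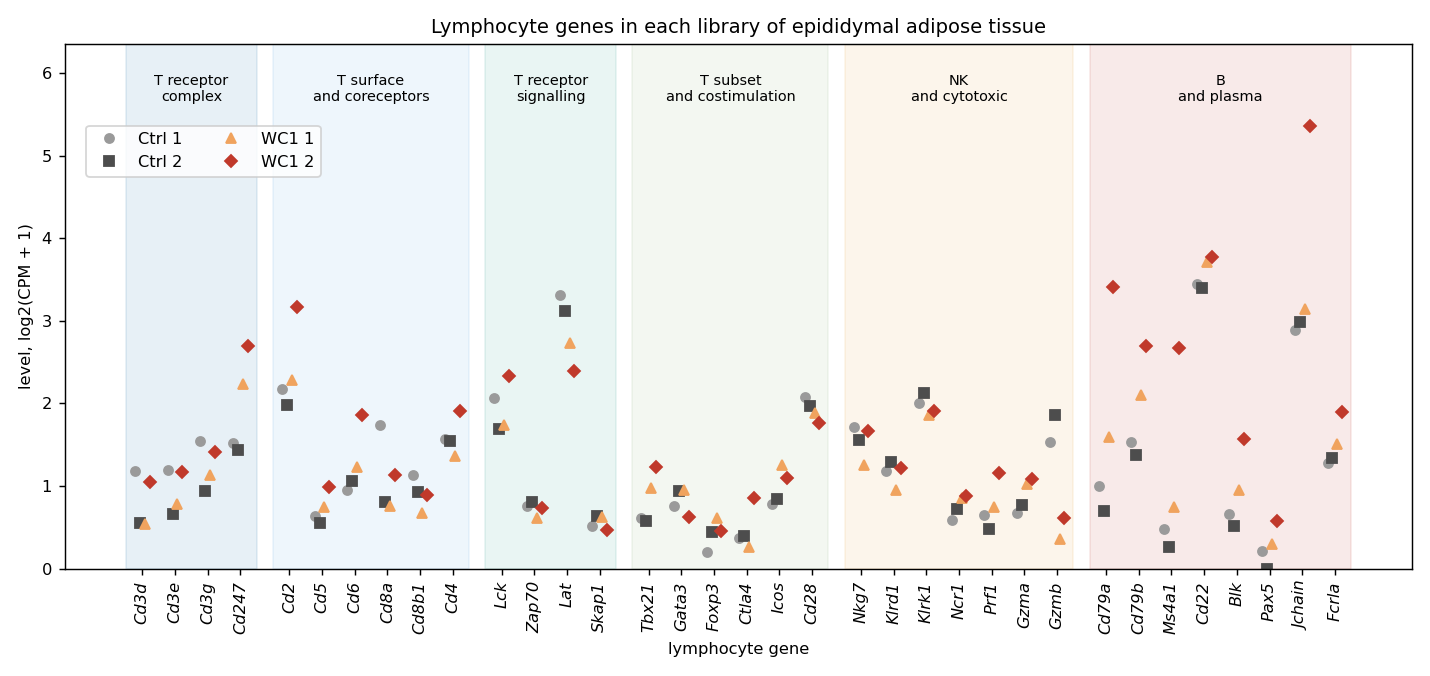
Level of each of the 35 lymphocyte genes, log2(CPM + 1) on the vertical axis, with 1 point per library and the genes grouped by class along the horizontal axis. In the B and plasma class WC1 2 is the highest point of all 8 genes, and Jchain in WC1 2, at 40.0 CPM, is the highest point of the plot.

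Of the 35 genes, 32 passed the filter on low values, and Foxp3, Ctla4 and Pax5 did not. Of these 32 genes, 2 were called higher in WC1 (Cd247 and Cd79b), 1 was called lower (Gzmb), and 29 were not called, beside 10.2% called higher and 7.71% called lower among all genes tested. The count of members called was thus below the background share in total, 3 of 32 beside 17.9%. The median log2 fold change was 0.19 over the 32 genes and -0.02 over all genes, and that of the members was 0.32 without Ctrl 1, 0.32 without WC1 1, 0.15 without Ctrl 2, 0.13 without WC1 2 and 0.16 without Ms4a1. Both WC1 libraries lay above both Ctrl libraries in 16 of the 32 genes (15 of 31 without Ms4a1, which passed the filter through WC1 alone), beside 32.7% of all genes tested, and below both in 6, beside 36.6%. In a bulk tissue, fewer cells of a type and less RNA per cell cannot be told apart, and this holds for every gene below. The calls also rested on the Ctrl pair: no member was called without Ctrl 1 or without Ctrl 2, where limma called 0.0425% and 0.0851% of all genes. At an unadjusted p under 0.05 the full set of libraries gave 10 of the 32 members, beside 5329 of all 14106 genes, which is a larger share. Leaving out WC1 1 gave 11 members higher (10 of 31 besides Ms4a1) and 2 lower, beside 17.2% and 19.5% of all genes, and leaving out WC1 2 gave 3 higher and 1 lower, beside 10.1% and 8.73%. Ms4a1 is left out of the following because the filter set its direction. The other genes higher in WC1 2 alone against Ctrl were Cd247, Cd2, Cd6, Tbx21, Prf1, Cd79a, Cd79b, Blk, Jchain and Fcrla, and those lower were Lat and Gzmb. In WC1 1 alone against Ctrl, Cd247, Cd79a and Cd79b were higher and Gzmb was lower. In these fits the lone WC1 library is assumed to vary like the Ctrl pair.

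**Figure D2:**
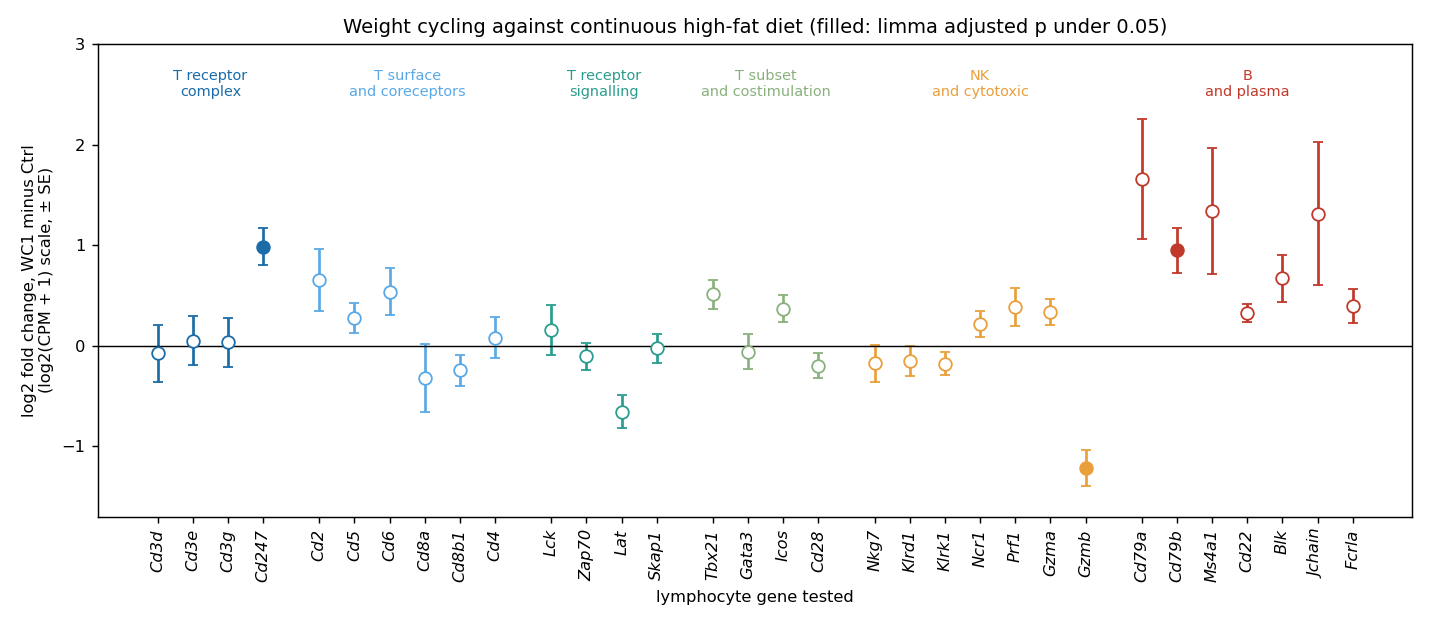
Log2 fold change of the 32 lymphocyte genes tested, WC1 minus Ctrl on the log2(CPM + 1) scale, with error bars of 1 SE from limma (2 libraries per group) and filled points for an adjusted p under 0.05. Cd247 at 0.98, Cd79b at 0.95 and Gzmb at -1.21 are the filled points, and Cd79a, Ms4a1 and Jchain lie higher than Cd79b but with longer error bars. The filter set the direction of Ms4a1.

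The T cell receptor complex was examined first. Its zeta chain was higher in WC1, and its CD3 chains did not separate the groups. Cd247, which encodes the zeta chain and also serves the activating receptors of NK cells, measured 1.86 and 1.70 CPM in Ctrl 1 and Ctrl 2 and 3.69 and 5.45 CPM in WC1 1 and WC1 2. Both WC1 libraries were thus above both Ctrl libraries, and the group mean was 2.57-fold higher (4.57 ± 1.25 compared to 1.78 ± 0.110 CPM, SD, n = 2). The log2 fold change was 0.98 ± 0.18 (SE) with an adjusted p of 0.031 in limma. It was called under 10 of 13 alternative settings, over which the adjusted p ranged from 0.00011 to 0.19, and the call was lost without Ctrl 1 and without Ctrl 2, at adjusted p of 0.19 and 0.16, and with no filter on low values, at 0.058. Cd247 lies at chr1:165788681-165877277 in mm10, where the gene Pou2f1 overlaps it on the other strand. Whether the authors counted reads by strand was not stated in the sources used here, and Pou2f1 was listed at 0.453 and 14.4 CPM in Ctrl and 0.213 and 0.381 CPM in WC1.

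The 3 CD3 chains varied within the groups instead. Cd3d, the delta chain, measured 1.27 and 0.471 CPM in Ctrl and 0.459 and 1.06 CPM in WC1. Cd3e, the epsilon chain, measured 1.29 and 0.575 CPM in Ctrl and 0.721 and 1.24 CPM in WC1. Cd3g, the gamma chain, measured 1.92 and 0.919 CPM in Ctrl and 1.20 and 1.67 CPM in WC1. Cd3d passed the filter through Ctrl 1 and WC1 2 alone, so its order within the groups was set by the filter. In all 3 genes Ctrl 1 was at least 2-fold above Ctrl 2, which 0.688% of all genes tested were, WC1 2 was above WC1 1, and the groups overlapped. Their log2 fold changes were -0.08 ± 0.28, 0.05 ± 0.24 and 0.03 ± 0.24, with adjusted p of 0.87, 0.90 and 0.93. The summed CD3 chains came to 4.47 and 1.97 CPM in Ctrl and 2.38 and 3.97 CPM in WC1. Cd247 over this sum was 0.415 and 0.866 in Ctrl and 1.55 and 1.37 in WC1, so the ratio separated the groups although the denominator did not.

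Having been seen in the CD3 chains, the order Ctrl 1 and WC1 2 above Ctrl 2 and WC1 1 was then looked for in the 29 other genes tested. It was found in 4, beside 5.87% of all genes tested: the T cell genes Cd8a, Cd4 and Lck, and Nkg7, a granule protein of cytotoxic cells. The genes of mesothelium, the cell layer that covers the fat pad, also differed within the groups. Of these, 10 of 10 were higher in Ctrl 1 than in Ctrl 2, beside 48.8% of all genes tested. And 10 of 10 were higher in WC1 2 than in WC1 1, beside 45.2%. Their summed level was 154 and 112 CPM in Ctrl and 77.0 and 206 CPM in WC1, with none of them at 0, and their part in the result was not tested.

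The genes Cd3g, Cd3d and Cd3e stand side by side on chromosome 9. Cd3g and Cd3d are read away from each other from a shared gap of 1354 bases, and Cd3d and Cd3e end 11400 bases apart. The bases before the start sites of Cd3g and Cd3d are shown because both promoters lie in this gap. They were taken from RefSeq (GRCm38.p6), chr9:44980432-44980681 on the minus strand and chr9:44981536-44981785 on the plus strand, are written 5′ to 3′, and carry in capitals each match to the E-box CANNTG, a short motif bound by many lymphocyte factors.
Cd3g: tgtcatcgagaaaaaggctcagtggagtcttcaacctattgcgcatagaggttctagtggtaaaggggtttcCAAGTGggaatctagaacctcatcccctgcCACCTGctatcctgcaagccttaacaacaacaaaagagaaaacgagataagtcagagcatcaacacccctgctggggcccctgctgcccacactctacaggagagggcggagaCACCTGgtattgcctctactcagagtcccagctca
Cd3d: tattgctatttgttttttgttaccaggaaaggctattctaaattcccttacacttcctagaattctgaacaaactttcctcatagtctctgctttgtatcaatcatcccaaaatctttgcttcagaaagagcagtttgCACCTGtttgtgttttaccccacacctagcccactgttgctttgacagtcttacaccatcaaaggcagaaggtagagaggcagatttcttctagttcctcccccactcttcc
All 4 chains of the complex had an E-box match within the 250 bases before their start, as did 66.1% of all 27018 promoters searched, so the match did not set them apart.

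Among the 6 T cell surface molecules, Cd2, Cd5, Cd6 and Cd4 were highest in WC1 2, and the CD8 chains were not. Cd2, an adhesion receptor of T and NK cells, measured 3.49 and 2.93 CPM in Ctrl and 3.85 and 7.99 CPM in WC1. Cd6, a receptor that tunes T cell activation, measured 0.936 and 1.09 CPM in Ctrl and 1.34 and 2.64 CPM in WC1. Cd5, an inhibitory receptor of T cells that some B cells also carry, measured 0.556 and 0.460 CPM in Ctrl and 0.672 and 0.985 CPM in WC1. In these 3 of the 6 genes both WC1 libraries lay above both Ctrl libraries, with WC1 2 the higher one, beside 32.7% of all genes in which both were above. Their log2 fold changes of 0.65 ± 0.31, 0.54 ± 0.24 and 0.27 ± 0.15 did not pass the test, with adjusted p of 0.19, 0.17 and 0.25. Without WC1 2 the same values were 0.21, 0.22 and 0.15, and without WC1 1 they were 1.10, 0.85 and 0.40, where Cd2 and Cd6 were called at adjusted p of 0.0038 and 0.010.

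The coreceptors mark helper and cytotoxic T cells. Cd4, the coreceptor of helper T cells that some macrophages also carry, measured 1.97 and 1.91 CPM in Ctrl and 1.57 and 2.75 CPM in WC1. Cd8a, the alpha chain of the cytotoxic coreceptor, measured 2.32 and 0.747 CPM in Ctrl and 0.688 and 1.19 CPM in WC1. Cd8b1, its beta chain, measured 1.18 and 0.896 CPM in Ctrl and 0.590 and 0.858 CPM in WC1. Cd8a stood out in Ctrl 1, at 3.11 times its level in Ctrl 2, and of the 3 genes only Cd8b1 had both WC1 libraries below both Ctrl libraries. The log2 fold changes were 0.08 ± 0.21 for Cd4, -0.33 ± 0.34 for Cd8a and -0.24 ± 0.16 for Cd8b1, with adjusted p of 0.81, 0.52 and 0.31. Cd8a over Cd4 in CPM was 1.18 in Ctrl 1 and between 0.392 and 0.438 in the other 3 libraries. Without Ctrl 1 the fold change of Cd8a turned to 0.14, and without Ctrl 2 it was -0.79.

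The signalling proteins below the receptor were led by Lat, the adaptor on which the signalling complex is built. Lat measured 8.92 and 7.68 CPM in Ctrl and 5.64 and 4.23 CPM in WC1. All 4 libraries kept to their groups without overlap. The log2 fold change was -0.66 ± 0.16 with an adjusted p of 0.051, just outside the threshold, and over 13 alternative settings it was called in 4, with adjusted p between 0.0068 and 0.29. With the library number as a block the adjusted p was 0.022, and without WC1 1 it was 0.0080. Lat is also used by mast cells, whose genes were called lower in WC1 in 8 of the 10 listed. The summed mast cell genes came to 580 and 648 CPM in Ctrl and 94.8 and 78.3 CPM in WC1, with none at 0, and their part in the result was not tested.

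The kinases and the other adaptor were not called. Lck, the kinase that starts the signal, measured 3.17 and 2.23 CPM in Ctrl and 2.33 and 4.03 CPM in WC1. Zap70, the kinase recruited next, measured 0.687 and 0.747 CPM in Ctrl and 0.524 and 0.667 CPM in WC1. Skap1, an adaptor that links the receptor to adhesion, measured 0.424 and 0.552 CPM in Ctrl and 0.541 and 0.381 CPM in WC1. The groups overlapped in Lck and Skap1 and did not in Zap70, where both WC1 libraries lay just under both Ctrl libraries. Adjusted p values were 0.67, 0.59 and 0.91. Summed over the 4 signalling genes, the level in WC1 was 0.751 times that in Ctrl, and without Lat it was 1.08 times.

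Genes of T cell subsets and costimulation were low, and none of the 4 tested was called. Tbx21 (T-bet), the master regulator of type 1 helper cells and of NK cells, measured 0.526 and 0.494 CPM in Ctrl and 0.967 and 1.35 CPM in WC1. Icos, a costimulatory receptor of activated T cells, measured 0.716 and 0.793 CPM in Ctrl and 1.39 and 1.14 CPM in WC1. Both genes were higher in both WC1 libraries than in either Ctrl library, and in both the WC1 pair was closer together than the groups were. Their log2 fold changes of 0.51 ± 0.15 and 0.37 ± 0.13 had adjusted p of 0.073 and 0.11. Tbx21 was called under 2 of 13 alternatives, 1 of them without WC1 1, with adjusted p from 0.028 to 0.31, and Icos under 0 of 13, from 0.081 to 0.43.

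Gata3, the regulator of type 2 helper cells and of innate lymphoid cells, measured 0.687 and 0.919 CPM in Ctrl and 0.934 and 0.540 CPM in WC1. Cd28, the main costimulatory receptor of T cells, measured 3.22 and 2.92 CPM in Ctrl and 2.69 and 2.40 CPM in WC1. Gata3 overlapped between groups, and Cd28 was lower in both WC1 libraries with a log2 fold change of -0.20 ± 0.12 and an adjusted p of 0.29. The members under the filter were counted from few reads. Foxp3, the regulator of regulatory T cells, had 10 and 31 reads in the Ctrl libraries and 32 and 23 in the WC1 libraries, or 0.146 and 0.356 and then 0.524 and 0.365 CPM. Ctla4, an inhibitory receptor of regulatory and activated T cells, had 20 and 27 reads in the Ctrl libraries and 12 and 51 in the WC1 libraries, or 0.292 and 0.310 and then 0.197 and 0.810 CPM. For Ctla4 the exact Poisson 95% interval in WC1 2, 0.603 to 1.07 CPM, lay above the intervals of the other 3 libraries, the highest of which ended at 0.452 CPM, while Foxp3 was higher in both WC1 libraries than in either Ctrl library. The Foxp3 interval of Ctrl 1, 0.0701 to 0.269 CPM, lay below that of WC1 1, 0.359 to 0.740 CPM, and the interval of Ctrl 2, 0.242 to 0.506 CPM, overlapped those of both WC1 libraries. Such intervals cover counting error only. On the other strand Foxp3 overlaps Ppp1r3f and Ccdc22, the latter at 44.0 and 43.3 CPM in Ctrl and 37.7 and 36.2 CPM in WC1. As for Cd247, whether reads were counted by strand was not stated in the sources used here.

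The genes of NK and cytotoxic cells did not move as a group. Gzmb (granzyme B) fell in WC1, while Gzma (granzyme A), Prf1 (perforin) and Ncr1 were higher in both WC1 libraries without passing the test. Gzmb measured 1.89 and 2.63 CPM in Ctrl and 0.279 and 0.524 CPM in WC1, from 129 and 229 and then 17 and 33 reads. Both WC1 libraries were far below both Ctrl libraries, and the group mean was 5.63-fold lower (0.401 ± 0.174 compared to 2.26 ± 0.527 CPM, SD, n = 2). The log2 fold change was -1.21 ± 0.18 with an adjusted p of 0.021. It was called under 11 of 13 alternatives, with adjusted p from 5.2e-06 to 0.14, and was lost without Ctrl 1 and without Ctrl 2, at 0.14 and 0.12. Gzmb lies at chr14:56258838-56262260 on the minus strand in mm10. Mast cells can also express Gzmb, and the mast cell genes, given above beside Lat, were lower in the same libraries, with a median log2 fold change of -2.37 over 10 genes. The part of mast cells in the fall of Gzmb was not tested.

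Gzma, a granule protease with another cleavage preference, measured 0.600 and 0.701 CPM in Ctrl and 1.03 and 1.13 CPM in WC1. Prf1, which forms pores for the granzymes, measured 0.570 and 0.391 CPM in Ctrl and 0.672 and 1.22 CPM in WC1. Ncr1 (NKp46), an activating receptor of NK cells and group 1 innate lymphoid cells, measured 0.497 and 0.644 CPM in Ctrl and 0.803 and 0.842 CPM in WC1. These 3 genes were thus above Ctrl in both WC1 libraries, the opposite side from Gzmb, a count of 3 in 7 that is near the 32.7% of all genes. Their log2 fold changes were 0.33 ± 0.13, 0.38 ± 0.19 and 0.22 ± 0.13, with adjusted p of 0.13, 0.20 and 0.29. The value of Prf1 rested on WC1 2, being 0.18 without that library and 0.59 without WC1 1, where it was called at an adjusted p of 0.045. On the TPM scale Gzma was called, with a log2 fold change of 0.57 and an adjusted p of 0.037, and it was the only alternative of 13 under which it was, with a range of 0.037 to 0.47.

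The receptors and the granule protein Nkg7 were not called either. Klrk1 (NKG2D), a receptor for stress ligands, measured 3.0 and 3.37 CPM in Ctrl and 2.64 and 2.75 CPM in WC1. Klrd1 (CD94), which pairs with NKG2 receptors and lies 11547 bases from Klrk1 on chromosome 6, measured 1.27 and 1.45 CPM in Ctrl and 0.934 and 1.33 CPM in WC1. Nkg7 measured 2.28 and 1.94 CPM in Ctrl and 1.38 and 2.18 CPM in WC1. Klrk1 did not overlap between the groups and the other two did. The log2 fold changes were -0.18 ± 0.12, -0.15 ± 0.15 and -0.18 ± 0.18, with adjusted p of 0.33, 0.51 and 0.52.

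The promoters of the 3 granule genes Gzmb, Gzma and Prf1 are shown because these genes encode parts of the same granule and yet lay on opposite sides of Ctrl. They come from RefSeq (GRCm38.p6), chr14:56262335-56262584 and chr13:113100982-113101231 on the minus strand and chr10:61297586-61297832 on the plus strand, written 5′ to 3′, with capitals on each match to the RUNX motif TGTGGT or its reverse complement ACCACA.
Gzmb: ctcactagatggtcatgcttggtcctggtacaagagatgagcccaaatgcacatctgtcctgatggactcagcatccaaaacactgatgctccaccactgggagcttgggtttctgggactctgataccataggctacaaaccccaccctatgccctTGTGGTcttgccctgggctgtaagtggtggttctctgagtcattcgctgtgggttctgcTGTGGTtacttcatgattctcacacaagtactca
Gzma: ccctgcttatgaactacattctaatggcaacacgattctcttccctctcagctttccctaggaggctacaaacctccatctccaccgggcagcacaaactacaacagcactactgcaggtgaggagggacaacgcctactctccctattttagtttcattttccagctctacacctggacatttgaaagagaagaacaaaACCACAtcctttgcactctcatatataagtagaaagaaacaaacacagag
Prf1: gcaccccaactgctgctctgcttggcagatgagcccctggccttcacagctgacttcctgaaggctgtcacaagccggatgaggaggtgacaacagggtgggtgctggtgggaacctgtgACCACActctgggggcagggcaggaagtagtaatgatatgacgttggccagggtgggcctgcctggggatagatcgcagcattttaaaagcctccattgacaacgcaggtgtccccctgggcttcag
Among the 24 members with a promoter in the table, 7 held TGTGGT on either strand within 250 bases before the start: Nkg7, Klrk1, Ncr1, Prf1, Gzma, Gzmb and Lck. This covered 6 of the 6 NK and cytotoxic genes with a promoter, beside 14.2% of all 27018 promoters, and none of the B and plasma genes. Gzmb and the genes that lay higher in WC1 shared the match, which is a description of these letters and not evidence of a bound site.

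B and plasma cell genes showed the widest differences. The 7 tested had positive log2 fold changes, with a median of 0.95 beside -0.02 for all genes tested. Ms4a1 passed the filter through WC1 alone, so its direction was set by the filter, and without it the median was 0.81 and both WC1 libraries lay above both Ctrl libraries in 6 of 6, beside 32.7% of all genes. Of the 7, 1 was called, Cd79b, beside 10.2% of all genes. Much of the difference came from WC1 2, the highest library in 6 of these 6 genes, beside 31.3% of all genes tested, and in Ms4a1 and the untested Pax5. The class summed to 21.7 and 20.8 CPM in Ctrl, 28.9 CPM in WC1 1 and 78.3 CPM in WC1 2. Besides Ms4a1, the median log2 fold change was 0.33 without WC1 2 and 1.11 without WC1 1.

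Cd79b and Cd79a form the signalling pair of the B cell receptor. Cd79b measured 1.90 and 1.59 CPM in Ctrl and 3.29 and 5.50 CPM in WC1. Cd79a measured 0.994 and 0.621 CPM in Ctrl and 2.02 and 9.64 CPM in WC1. Both genes were higher in both WC1 libraries, and WC1 2 stood 1.67-fold above WC1 1 for Cd79b and 4.78-fold for Cd79a. Cd79b had a log2 fold change of 0.95 ± 0.23 and an adjusted p of 0.049. It was called under 9 of 13 alternatives, over which the adjusted p ranged from 0.0010 to 0.22, and the call was lost with no filter at 0.082, with median-of-ratios scaling at 0.051, without Ctrl 1 at 0.22 and without Ctrl 2 at 0.22. Cd79a had the larger log2 fold change, 1.66 ± 0.59, and with an adjusted p of 0.11 it was not called. Without WC1 2 its fold change was 0.75 with an adjusted p of 0.047, and without WC1 1 it was 2.57 with an adjusted p of 0.00066, and over all 13 alternatives it was called in 3, from 0.00012 to 0.34.

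Ms4a1 (CD20), a surface protein of mature B cells, measured 0.395 and 0.195 CPM in Ctrl and 0.672 and 5.37 CPM in WC1, from 27, 17, 41 and 338 reads. Jchain, which joins antibodies into polymers and is made by plasma cells, measured 6.38 and 6.92 CPM in Ctrl and 7.80 and 40.0 CPM in WC1. WC1 1 lay close to Ctrl in Jchain and above both Ctrl libraries in Ms4a1. WC1 2 stood 7.99-fold above WC1 1 in Ms4a1 and 5.12-fold above it in Jchain. A 4-fold excess of WC1 2 over WC1 1 was found in 0.327% of all genes tested, and in 2 of the 6 B and plasma genes tested besides Ms4a1, Cd79a and Jchain. Since the filter set the direction of Ms4a1, its fold change and its calls do not count as support. The log2 fold change of Jchain was 1.31 ± 0.71 with an adjusted p of 0.24, and it was 0.20 without WC1 2 and 2.42 without WC1 1, where it was called at an adjusted p of 0.00028. Jchain made up 29.4% and 33.3% of the class in Ctrl, 27.0% in WC1 1 and 51.0% in WC1 2.

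Blk, a kinase of the Src family in B cells, measured 0.585 and 0.425 CPM in Ctrl and 0.934 and 1.95 CPM in WC1. Fcrla, an intracellular Fc receptor-like protein of B cells, measured 1.42 and 1.53 CPM in Ctrl and 1.85 and 2.72 CPM in WC1. In both, WC1 1 lay between Ctrl and WC1 2. Their log2 fold changes were 0.67 ± 0.23 and 0.40 ± 0.17, with adjusted p of 0.11 and 0.16. Without WC1 2 they were 0.36 and 0.21, and without WC1 1 they were 0.97 and 0.59 and both were called, at adjusted p of 0.0076 and 0.031. Pax5, the factor that keeps B cell identity, was under the filter, with 11 and 0 reads in the Ctrl libraries and 14 and 31 in the WC1 libraries. A count of 0 in Ctrl 2 allows up to 0.0345 CPM at 3 reads, and WC1 2 was at 0.492 CPM.

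Cd22 went its own way among the B cell genes. This inhibitory receptor of B cells measured 9.88 and 9.52 CPM in Ctrl and 12.1 and 12.7 CPM in WC1. The WC1 libraries were nearly equal, while the rest of the class summed to 16.8 CPM in WC1 1 and 65.6 CPM in WC1 2. Its log2 fold change was 0.32 ± 0.09 with an adjusted p of 0.071, and leaving out any 1 library kept it between 0.30 and 0.35. On the TPM scale it was called at 0.42 with an adjusted p of 0.046, and over 13 alternatives it was called in 2, from 0.046 to 0.31.

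The promoters of Jchain and Cd79a are shown because these genes had the largest excess in WC1 2 among the members whose RefSeq promoter can be printed. They are chr5:88527898-88528147 on the minus strand and chr7:24897247-24897380 on the plus strand in GRCm38.p6, the second ending where the first annotated exon begins, written 5′ to 3′ with capitals on each E-box match, CANNTG.
Jchain: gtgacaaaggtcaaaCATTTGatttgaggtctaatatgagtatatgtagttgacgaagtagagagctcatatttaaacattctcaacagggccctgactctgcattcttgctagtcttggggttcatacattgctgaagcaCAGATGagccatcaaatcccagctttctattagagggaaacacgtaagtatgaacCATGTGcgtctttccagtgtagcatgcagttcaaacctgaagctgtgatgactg
Cd79a: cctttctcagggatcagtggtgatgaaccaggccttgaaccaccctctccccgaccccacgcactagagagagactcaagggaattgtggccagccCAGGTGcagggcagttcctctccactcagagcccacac
The octamer ATGCAAAT, a motif of B cell factors that 1.61% of all promoters held on either strand, was found in 0 of the 24 member promoters. The motif CCCNNGGG, the core of the site of the B cell factor Ebf1, was found in 2 of the 24, beside 11.7% of all promoters. The 2 were those of the cytotoxic gene Prf1 and of Cd22. All 5 B and plasma genes with a promoter held an E-box, as 22 of the 24 members did. Motif matches of different kinds did not share bases in any member promoter. The members with no entry in the promoter table were Cd2, Cd6, Cd8b1, Cd4, Skap1, Icos, Cd28, Klrd1, Cd79b, Ms4a1 and Blk.

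**Figure D3:**
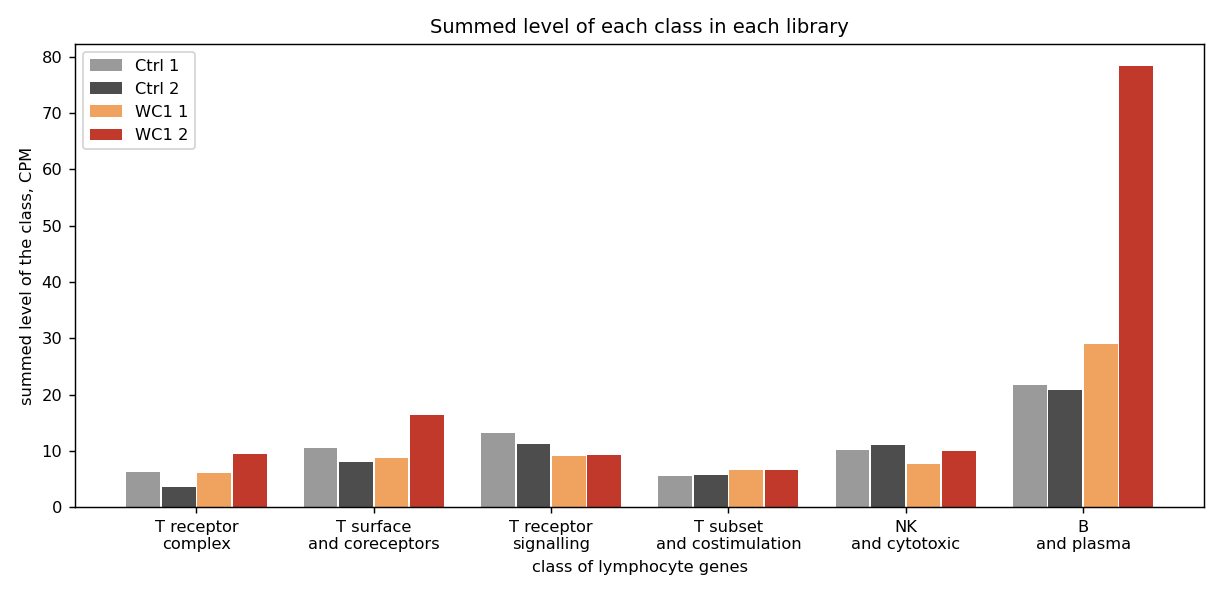
Summed level in CPM of the genes of each class on the vertical axis, with 1 bar per library. The B and plasma class stands at 28.9 CPM in WC1 1 and 78.3 CPM in WC1 2, while the NK and cytotoxic class stays between 7.74 and 11.1 CPM.

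The classes were then compared within each group, where diet did not differ. Of the 31 genes tested besides Ms4a1, 5 were at least 2-fold higher in WC1 2 than in WC1 1, beside 1.63% of all tested genes above 0 in both. They were Cd3d, Cd2 and the B cell genes Cd79a, Blk and Jchain, and Ms4a1 and, under the filter, Ctla4 and Pax5 were as well. The filter set the order of Cd3d within both groups, so Cd3d does not count as support. Among members above 0 in both Ctrl libraries, those at least 2-fold higher in Ctrl 1 than in Ctrl 2 were Cd3d, Cd3e, Cd3g, Cd8a and Ms4a1, beside 0.688% of all genes. Summed by class, WC1 2 over WC1 1 was 2.71 for B and plasma genes, 1.88 for T cell surface genes, 1.55 for the T receptor complex, 1.29 for NK and cytotoxic genes, 1.03 for T receptor signalling and 0.986 for T subset genes. Within WC1 the order thus ran from B cell genes, with the widest gap, to T subset genes, with none. The order within Ctrl differed. Ctrl 1 over Ctrl 2 was 1.73 for the T receptor complex, 1.30 for T cell surface genes and 1.18 for T receptor signalling. It was 1.04 for B and plasma, 0.964 for T subset and 0.908 for NK and cytotoxic genes. In Jchain, Ms4a1 and Cd79a, WC1 1 was nearer to both Ctrl libraries than to WC1 2.

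**Figure D4:**
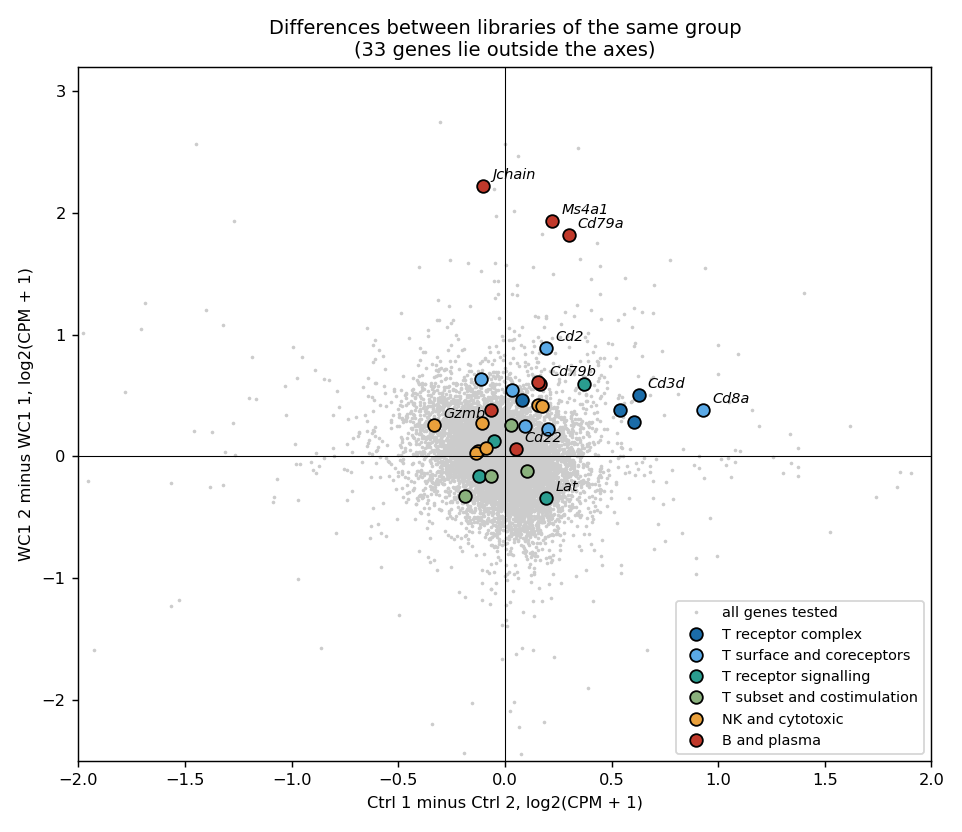
Difference between libraries of the same group for each gene tested, Ctrl 1 minus Ctrl 2 on the horizontal and WC1 2 minus WC1 1 on the vertical axis, both in log2(CPM + 1), with the 32 lymphocyte genes coloured by class over all 14106 genes in grey, 33 of which lie outside the axes. Jchain, Ms4a1 and Cd79a stand at the top, apart from the other members, and Cd8a and the CD3 chains stand to the right.

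Other genes of the same cell types were counted from lists that do not overlap the members. Of 18 further B cell genes tested, 0 were called higher and 1 lower in limma, beside 10.2% and 7.71% of all genes. At an unadjusted p under 0.05 there were 7, beside 5329 of all 14106 genes. The median log2 fold change was 0.34, and it was -0.01 without WC1 2. The gene called was Cd37, a tetraspanin that macrophages also express, at 109 and 105 CPM in Ctrl and 78.8 and 60.7 CPM in WC1. Ebf1, the B cell factor that stromal and fat precursor cells also use, measured 51.1 and 59.1 CPM in Ctrl and 71.5 and 88.5 CPM in WC1, with an adjusted p of 0.054. WC1 2 was the highest library in 15 of the 23 B cell genes in the matrix. Of the 18 tested, 7 were at least 2-fold higher in WC1 2 than in WC1 1, beside 1.63% of all tested genes above 0 in both libraries. The sum of the list, in contrast, was lowest in WC1 2, at 467 CPM compared to 539 CPM in WC1 1 and 567 and 555 CPM in Ctrl, so the excess of WC1 2 did not hold for every gene of the list.

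Some genes outside the members were high in the same library and are named because of it, after their values were seen. Cr2 and Fcer2a, receptors of mature follicular B cells, measured 1.60 and 3.08 CPM in WC1 2, compared to 0.131 and 0.361 CPM in WC1 1 and at most 0.0585 and 0.345 CPM in Ctrl. Cxcl13, the chemokine that draws B cells into lymphoid clusters, measured 1.61 and 1.06 CPM in Ctrl, 1.33 CPM in WC1 1 and 12.4 CPM in WC1 2. Its receptor Cxcr5 measured 0.292 and 0.0690 CPM in Ctrl, 0.442 CPM in WC1 1 and 3.18 CPM in WC1 2. Of the 6 lymphoid stroma and cluster genes tested, 0 were called in limma, 0 of them had an unadjusted p under 0.05, and the median log2 fold change was -0.08. Mesothelial genes, named above, were also high in WC1 2, at least 2-fold above WC1 1 in 9 of 10, and their part in the result was not tested.

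**Figure D5:**
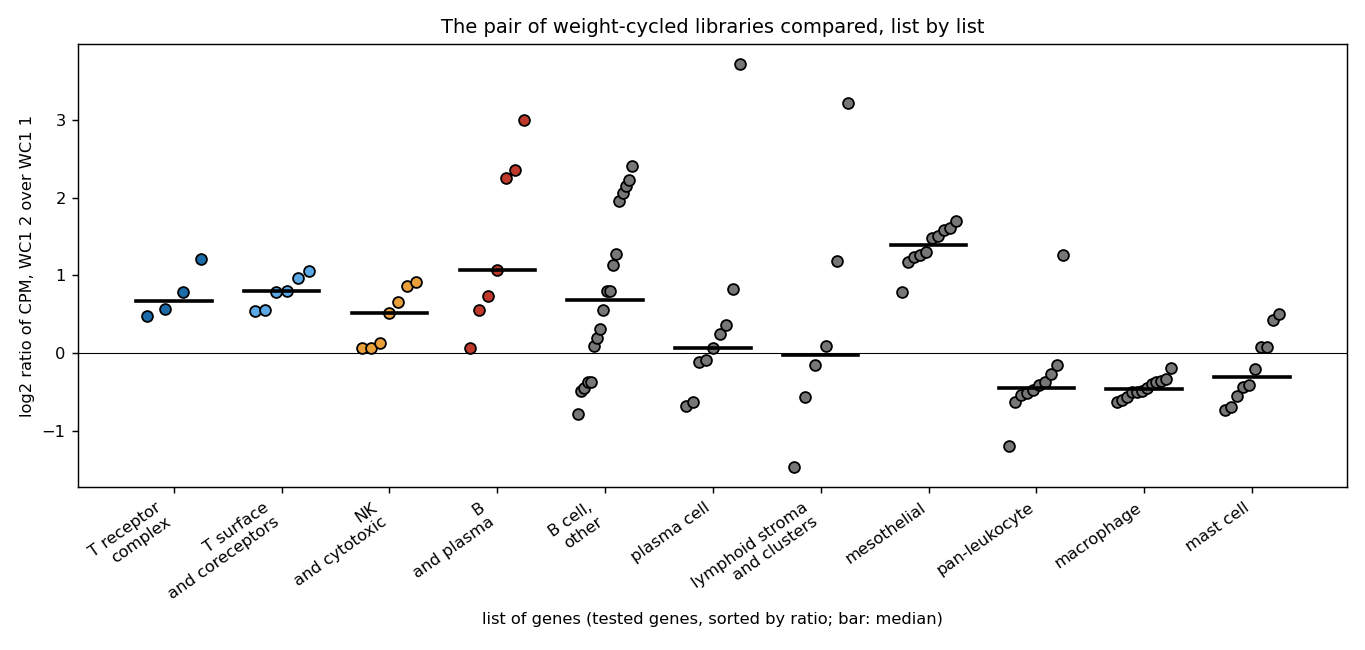
Log2 ratio of CPM, WC1 2 over WC1 1, for the genes of each list, 1 point per gene tested and a bar at the median. The B and plasma members and the mesothelial genes lie mostly above 0, and the pan-leukocyte and macrophage genes mostly below it.

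In the pathway below the T cell receptor, other components were counted from a list. Of 15 further signalling genes tested, 6 were called higher, Ets1, Rasgrp1, Prkcq, Malt1 and Themis among them, and 1 lower (Lcp2), beside 10.2% and 7.71% of all genes, with a median log2 fold change of 0.38. Ets1, a transcription factor of lymphocytes and endothelium, measured 43.7 and 41.1 CPM in Ctrl and 76.2 and 84.8 CPM in WC1, a log2 fold change of 0.91 ± 0.08 with an adjusted p of 0.012. Here the groups were far apart and the WC1 pair close together, unlike the CD3 chains. Several of these genes, Ets1 and Malt1 among them, are also expressed outside lymphocytes.

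In 4 lists of lymphocyte states, 7 of 35 genes tested were called, a share close to the 17.9% of all genes. Of 10 naive and memory T cell genes tested, 0 were called higher and 2 lower, Klf2 and the homing receptor Ccr7, which also marks migrating dendritic cells and measured 5.98 and 5.95 CPM in Ctrl and 1.77 and 3.03 CPM in WC1. Of 6 genes of regulatory T cells and group 2 innate lymphoid cells tested, the interleukin-2 receptor chain Il2ra was called higher, at 4.05 and 3.95 compared to 6.29 and 7.75 CPM, and the interleukin-33 receptor Il1rl1 lower, at 30.5 and 33.7 compared to 18.6 and 15.7 CPM. Il1rl1 is also a mast cell gene. Of 10 further NK and cytotoxic genes tested, 2 were called lower, Cst7 at 1.74 and 1.41 compared to 0.377 and 0.461 CPM, and the chemokine Ccl5 at 6.48 and 5.39 compared to 2.59 and 3.08 CPM. Like Gzmb, these 2 genes were lower in both WC1 libraries by more than the spread within either group. Of 9 plasma cell genes tested, 1 was called, Irf4, which was higher at 13.2 and 16.9 CPM compared to 8.79 and 8.83 CPM and which other leukocytes express too.

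Genes of other leukocytes were measured beside the lymphocyte genes, and most of those called were lower in WC1. Of 10 pan-leukocyte genes tested, 5 were called lower, with a median log2 fold change of -0.80 and summed levels of 4056 and 3834 CPM in Ctrl and 2637 and 1805 CPM in WC1. Of 12 macrophage genes, 7 were called lower, with a median of -0.68 and sums of 13169 and 12091 CPM in Ctrl and 7871 and 5618 CPM in WC1. WC1 2 was the lowest library for both sums although it was the highest for the 35 lymphocyte genes together, at 130 CPM compared to 67.2 CPM in WC1 1 and 67.4 and 60.6 CPM in Ctrl. The B and plasma genes made up 78.3 CPM of that 130 CPM, while the NK and cytotoxic sum was highest in Ctrl 2, at 11.1 CPM. Of 12 adipocyte genes, 8 were called higher, with a median of 0.99 and sums of 27135 and 28525 CPM in Ctrl and 37779 and 45421 CPM in WC1. Of 10 dendritic cell genes tested, 1 was called higher and 2 lower, and of 2 neutrophil genes tested, 1 was called higher, S100a8. The epididymis genes were at 0 in both Ctrl libraries and summed to 3.13 CPM in WC1 1 and 0.0318 CPM in WC1 2. None of the pan-leukocyte, macrophage or adipocyte genes was at 0 in any library. The part of these cell types in the values of the lymphocyte genes was not tested.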

How the data were processed

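Epididymal adipose RNA had been sequenced from 2 Ctrl and 2 WC1 libraries, grouped here by the sample titles. The submitters' processing notes name fastp, HISAT2, StringTie and the mm10 build, while no read counter or annotation is stated in the sources used here. The authors deposited a matrix named CPM, a signal proportional to reads whose columns sum to between 976415 and 1.04779e+06, and a matrix of TPM, which the authors corrected for transcript length. All values of the first matrix were whole multiples of 1 read to within 0.01 read, and reads were recovered from it (3 reads were 0.0345 to 0.0492 CPM).

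Genes at 0.5 CPM or more in 2 or more libraries (14106, with 10315 removed) were compared by limma 3.58.1 in R 4.3.3 on log2(CPM + 1), with a variance trend, two-sided, without covariates, adjusted by Benjamini-Hochberg over all tested genes. The test had been planned for plain CPM and was kept for this signal. Fold changes on this scale understate changes of low genes. Exact two-sided permutation of 1 gene cannot give less than 0.333, so none is quoted. Alternatives were a pseudocount of 0.25, other filters, TPM, other scalings, edgeR 4.0.16 and DESeq2 1.42.0 on the recovered reads, an adjusted p under 0.1 with a 2-fold change, each library left out in turn, and the library number as a block. The B and plasma median without Ms4a1 was added after seeing the data. The scripts were tested on simulated data.

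The members and the lists of other genes were chosen with earlier results of these data known. Named genes were the members, the 2 genes of each list with the smallest unadjusted p, and Ptprc, except items not reported here; others are said to be outside this rule or are those called in a list. Libraries of a group differed by more than counting error, with a chi-square over its degrees of freedom of 33.9 for Ctrl and 83.7 for WC1. Equal library numbers carry no stated pairing. Coordinates come from GENCODE M21 (mm10) and promoters from RefSeq (GRCm38.p6), cut before any annotated exon, with 24 of 35 members matched.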

Additional observations from a re-analysis of the deposited data

How the results depend on the processing

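With 2 libraries per group, the spread between libraries limits every fold change, and members under 1 CPM rest on few reads. Of 416 values of members over 13 alternatives, 370 kept their direction and side of the threshold, 9 lost a call (6 of them by leaving a library out), 21 gained one and 16 reversed. The cause of these changes was not tested.

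The library numbers were used as a block because both groups carry numbers 1 and 2. The differences between libraries 1 and 2 correlated with r = 0.19 over 14106 genes, and the labels give no pairing, so the samples share only a number. With the block, limma called 2 members higher and 2 lower, the second being Lat, and 1769 genes higher and 1497 lower in all.

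Genes called numbered 788 higher and 532 lower with no filter, 359 and 206 at an adjusted p under 0.1 with at least 2-fold, 583 lower in TPM and 1736 lower with DESeq2. Members called higher numbered 0 with no filter (beside 4.35% of the genes tested), 4 in TPM (14.6%), 1 with median-of-ratios scaling (10.3%) and 7 with DESeq2 (15.1%). The 7 with DESeq2 included Ms4a1, whose direction the filter set. At the 2-fold setting 0 members were called higher, beside 359 genes. Members called lower numbered 2 with median-of-ratios scaling (beside 7.93%) and 2 with DESeq2 (12.3%). In TPM 77.9% of the called genes were higher, compared to 57.0% in CPM.

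Median log2 fold changes moved as follows, with Ms4a1, whose direction the filter set, kept in the B and plasma class. With a pseudocount of 0.25 they were -0.13 for T receptor signalling, 0.24 for T subset, 0.48 for further T signalling, -0.42 for further NK and -2.95 for mast cell genes. In TPM they were -0.16 for T receptor signalling, 0.50 for further T signalling, 0.13 for regulatory T, 0.078 for plasma cell, 0.030 for lymphoid stroma, -2.62 for mast cell and 0.71 for neutrophil genes. With edgeR and DESeq2 they were 0.45 and 0.46 for T surface, -0.16 in both for T receptor signalling, 0.32 and 0.33 for T subset, 1.54 in both for B and plasma, 0.76 in both for further T signalling, 0.28 in both for naive and memory T, 0.12 in both for regulatory T, -0.54 and -0.55 for further NK, -0.070 and -0.068 for plasma cell and -3.12 in both for mast cell genes. Summed levels in WC1 over Ctrl were 0.986 for the T receptor complex without Cd247, 1.08 for T receptor signalling without Lat, and 1.39 in TPM and 1.57 without Cd28 for T subset genes.

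Leaving out 1 library at a time, genes called ranged from 2 to 2424 higher and from 4 to 2748 lower, and members called from 0 to 11 higher and from 0 to 2 lower. Log2 fold changes changed sign in Cd3d (-0.39 to 0.24), Cd3e (-0.22 to 0.32), Cd3g (-0.27 to 0.33), Cd8a (-0.79 to 0.14), Cd4 (-0.19 to 0.35), Lck (-0.14 to 0.46), Skap1 (-0.11 to 0.052, and 0.010 in TPM), Gata3 (-0.22 to 0.10) and Nkg7 (-0.39 to 0.032). Medians ranged from -0.16 to -0.055 for T receptor signalling, 0.032 to 0.24 for T subset, -0.20 to 0.032 for NK and cytotoxic, 0.36 to 1.25 for B and plasma, 0.30 to 0.52 for further T signalling, -0.031 to 0.20 for regulatory T, -0.012 to 0.52 for further B cell, -0.11 to 0.28 for plasma cell, -0.13 to 0.089 for lymphoid stroma, -1.04 to -0.39 for pan-leukocyte, -0.96 to -0.48 for macrophage, 0.73 to 1.19 for adipocyte and -0.62 to 0.62 for mesothelial genes. Besides Ms4a1, whose direction the filter set, the B and plasma median ranged from 0.33 to 1.11. The median of the T receptor complex ranged from -0.24 to 0.33 and that of T surface genes from -0.021 to 0.37. Summed levels in WC1 over Ctrl ranged from 1.21 to 2.11 for the T receptor complex and from 1.15 to 1.19 for T subset genes.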

Other observations

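The genes in this paragraph other than Prdm1 were chosen after their values were seen. Mzb1, a chaperone of antibody assembly in plasma cells and marginal zone B cells, measured 0.541 and 0.368 CPM in Ctrl, 0.262 CPM in WC1 1 and 3.46 CPM in WC1 2. Prdm1, the regulator of plasma cells that T cells and macrophages also use, measured 7.05 and 5.96 CPM in Ctrl and 9.62 and 8.88 CPM in WC1. In the whole plasma cell list WC1 2 was the highest library in 3 of 10 genes. The B cell genes Pou2af1, Fcmr and Tnfrsf13c measured 5.86, 2.91 and 1.76 CPM in WC1 2 compared to 1.51, 0.656 and 0.328 CPM in WC1 1. Ccl21a, the chemokine of lymphatic and lymph node stroma that draws naive T cells, was high in another library, at 8.12 CPM in Ctrl 2 compared to 0.146 CPM in Ctrl 1 and 0.967 and 0.349 CPM in WC1. Glycam1, a defining gene of lymph node vessels, was at 0 in all 4 libraries.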
